A study of Saccharomyces cerevisiae with 9 samples.

Results

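The genes JEN1, ADY2, ATO2 and ATO3 encode plasma membrane proteins of budding yeast that carry, or belong to families that carry, lactate and acetate. They were chosen by name with their frozen and unfrozen values on these arrays already known, and each has 1 annotated probe set among the 5396 genes tested. Jen1, with systematic name YKL217W, is a proton symporter that takes up lactate and pyruvate. Ady2, also named Ato1 (YCR010C), is the main acetate permease. Ato2 (YNR002C) and Ato3 (YDR384C) are its relatives in the same protein family, which has also been studied in the export of ammonia. All 4 probe sets have the plain suffix of sets designed for a single gene, and not the suffixes Affymetrix uses for sets that can bind related genes.

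On glucose, yeast represses the uptake of poorer carbon sources. The kinase Snf1, the activators Cat8, Adr1 and the Hap complex, and the repressors Mig1 and Mig2 control many of the genes for using lactate, acetate and ethanol, JEN1 among them. Glucose also removes the Jen1 protein from the membrane, through the arrestin-like adaptor Rod1 and the ubiquitin ligase Rsp5. Inside the cell, lactate is oxidised to pyruvate by cytochrome-linked dehydrogenases, and acetate is activated to acetyl-CoA before it enters the glyoxylate cycle.

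The cells were strain BY4741, a laboratory strain that lacks URA3, LEU2, MET17 and a functional HIS3, grown at 30 °C in glucose-rich YPD to log phase. All groups were washed and suspended in distilled water. The 3 unfrozen samples were taken at that point, 3 samples were frozen at -30 °C for 24 h and 3 for 48 h, and the frozen samples were thawed at 30 °C for 10 min before RNA was extracted. The labels give the 10 min at 30 °C for the frozen samples alone, so freezing, storage and thawing cannot be told apart. Because the labels name both triplicates and 2 independent experiments, the spread behind each p-value is that between arrays and may be technical.

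Arrays differed in brightness, with a median S. cerevisiae intensity of 201 to 392 unfrozen, from 237 to 679 at 24 h and from 289 to 726 at 48 h, and replicate 3 was the brightest array of both frozen groups. Each array was therefore scaled to the same median. The threshold for background was a mean scaled log2 signal of 2.21, the 95th percentile of probe sets for fission yeast genes. All 4 transporter genes lay above it on every array. On single arrays the 95th percentile of the fission yeast probe sets was higher, from 2.38 to 3.42. Of the deleted loci, URA3 and MET17 stood at percentiles 56.2 and 92.7 of these background probe sets, and LEU2 at 97.8, above the threshold. The 17 control probe sets for ribosomal RNA had median scaled log2 values of 5.45 to 7.02 over the unfrozen arrays, 7.94 to 10.43 at 24 h and 7.64 to 9.80 at 48 h. In whole cultures, fewer cells with a transcript and less transcript per cell cannot be told apart.

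JEN1 had a scaled log2 signal of 6.47, 6.42 and 5.85 in unfrozen replicates 1, 2 and 3. It stood at 8.11, 10.12 and 10.40 in the 24 h arrays and at 9.25, 10.47 and 10.69 in the 48 h arrays, in the same order of replicates. Every frozen array lay above every unfrozen array, by at least 1.64 on the log2 scale at 24 h and at least 2.78 at 48 h. On the linear scale the group means were 77.4 ± 17.1 (SD, n = 3) unfrozen, 913 ± 565 at 24 h and 1227 ± 548 at 48 h. The difference from unfrozen was 3.29 ± 0.56 at 24 h (log2, SE, n = 3 per group), or 9.80-fold, and 3.89 ± 0.56 at 48 h, or 14.8-fold. By size these were the differences ranked 9 and 5 from the highest among the genes tested. Replicate 1 was the lowest array of both frozen groups. The ribosomal RNA signal of replicates 1, 2 and 3 was 7.94, 9.68 and 10.43 at 24 h, in the same order as JEN1 and ADY2. At 48 h it was 9.78, 7.64 and 9.80, with replicate 2 lowest, where JEN1 and ADY2 were lowest in replicate 1. Its part in these signals was not tested.

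ADY2 had differences of similar size to those of JEN1. Its scaled log2 values were 4.96, 4.95 and 3.37 in unfrozen replicates 1, 2 and 3. They were 6.56, 8.35 and 9.27 at 24 h and 7.49, 8.57 and 9.01 at 48 h. The frozen arrays again lay above all unfrozen arrays, with replicate 1 lowest and replicate 3 highest in both frozen groups and replicate 3 lowest in the unfrozen group. The difference from unfrozen was 3.63 ± 0.68 at 24 h (log2, SE, n = 3 per group), or 12.4-fold, ranked 7 from the highest. At 48 h it was 3.93 ± 0.68, or 15.2-fold, ranked 3. Without replicate 3 in each group the 24 h difference was 2.50. The ADY2 signal of 3.37 in unfrozen replicate 3 was close to background, whose 95th percentile on that array was 2.89. A pseudocount of 16, which weighs on low signals, lowered the ADY2 difference to 2.82 at 24 h and 3.07 at 48 h.

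ATO2 followed with a smaller difference. Its scaled log2 signal was 5.97, 5.63 and 5.12 in unfrozen replicates 1, 2 and 3, then 6.43, 7.68 and 6.52 at 24 h and 7.42, 7.97 and 6.41 at 48 h. The frozen arrays did not overlap the unfrozen ones, but the gap was only 0.46 at 24 h and 0.45 at 48 h. On the scaled values replicate 2 was the highest array in both frozen groups, while JEN1 and ADY2 were highest in replicate 3. The deposited ATO2 intensities of replicates 1, 2 and 3 were 74.4, 139 and 177 at 24 h, with replicate 3 highest. At 48 h they were 148, 206 and 176. The difference from unfrozen was 1.30 ± 0.44 at 24 h (log2, SE, n = 3 per group), or 2.47-fold, ranked 94 from the highest. At 48 h it was 1.69 ± 0.44, or 3.24-fold, ranked 67.

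ATO3 differed from its relatives in having a high unfrozen signal and no shared direction after freezing. Its scaled log2 signal was 9.89, 9.76 and 9.98 in unfrozen replicates 1, 2 and 3. It was 9.88, 10.30 and 9.40 at 24 h and 10.45, 10.18 and 8.83 at 48 h, so the groups overlapped. On the scaled values replicate 3 was the lowest array of both frozen groups, the array in which JEN1 and ADY2 were highest. At 24 h this order depended on the scaling, since the deposited ATO3 intensities were 813, 849 and 1306 in replicates 1, 2 and 3. At 48 h the deposited intensities were 1205, 956 and 938. The difference from unfrozen was -0.02 ± 0.38 at 24 h and -0.06 ± 0.38 at 48 h (log2, SE, n = 3 per group), with 95% intervals of -0.86 to 0.83 and -0.91 to 0.79. The sign turned in the values as deposited, where the differences were 0.28 and 0.36 and the median of all genes was 0.28 and 0.40.

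**Figure D1:**
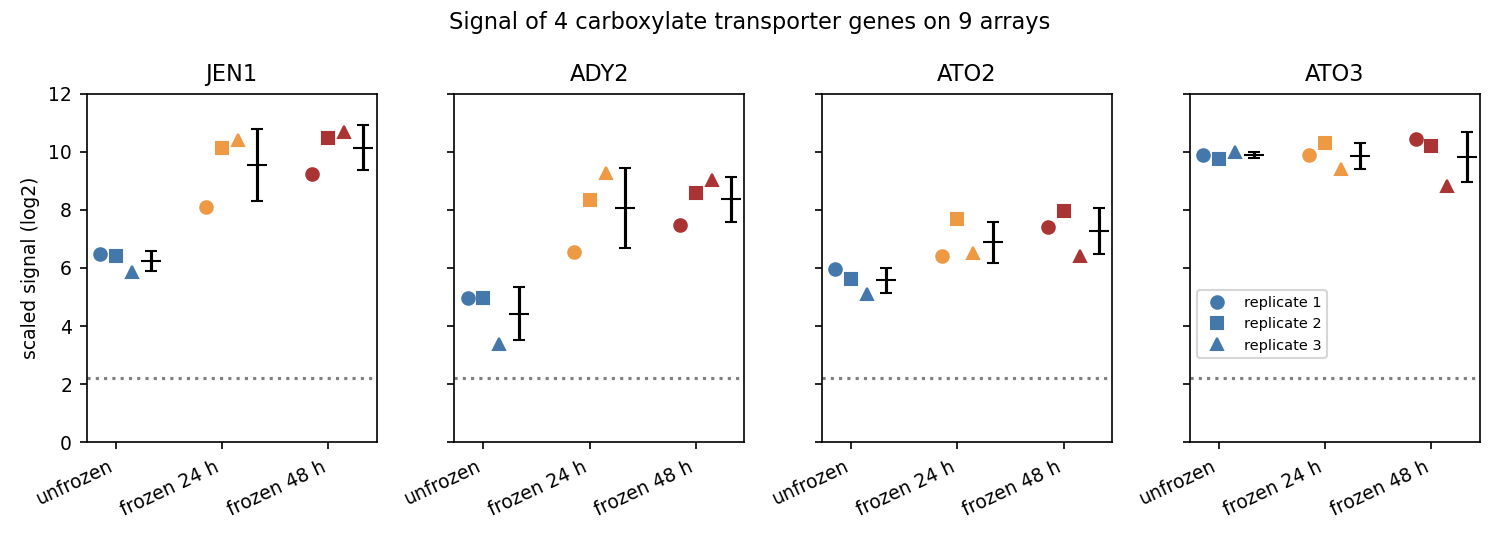
Scaled log2 signal (vertical axis) of JEN1, ADY2, ATO2 and ATO3 on each array, by group (horizontal axis). Symbols mark replicate numbers, the black bars are the mean and SD of 3 arrays, and the dotted line is the background threshold of 2.21. JEN1, ADY2 and ATO2 lie higher on all frozen arrays than on any unfrozen one, and the ATO3 groups overlap.

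These differences come from the contrasts on which the genes were picked and are given as a description. At 24 h limma's adjusted p was under 0.05 for JEN1 and ADY2, 2 of the 4, as for 1.00% of all genes (0.797% higher and 0.204% lower). At 48 h the same 2 of 4 passed, as did 2.91% of all genes (2.09% higher). JEN1, ADY2 and ATO2 had frozen arrays above all unfrozen arrays in both contrasts, a pattern that 12.2% of all genes showed at 24 h and 11.9% at 48 h. The opposite pattern, all frozen arrays lower, was seen in 0 of the 4 genes and in 11.6% of all genes at 24 h. The frozen groups share their unfrozen controls, so their contrasts are not separate observations. The 24 h calls of JEN1 and ADY2 were lost without any 1 of unfrozen replicates 1, 2 and 3, frozen 24 h replicates 2 and 3 or frozen 48 h replicate 2, with differences of 2.86 to 3.40 for JEN1 and 3.03 to 3.90 for ADY2 over these removals. At 48 h JEN1 passed without each of the 9 arrays in turn, and ADY2 lost its call when unfrozen replicate 1, unfrozen replicate 2 or frozen 48 h replicate 2 was removed, with differences of 3.40 to 4.36 over the 9 removals.

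**Figure D2:**
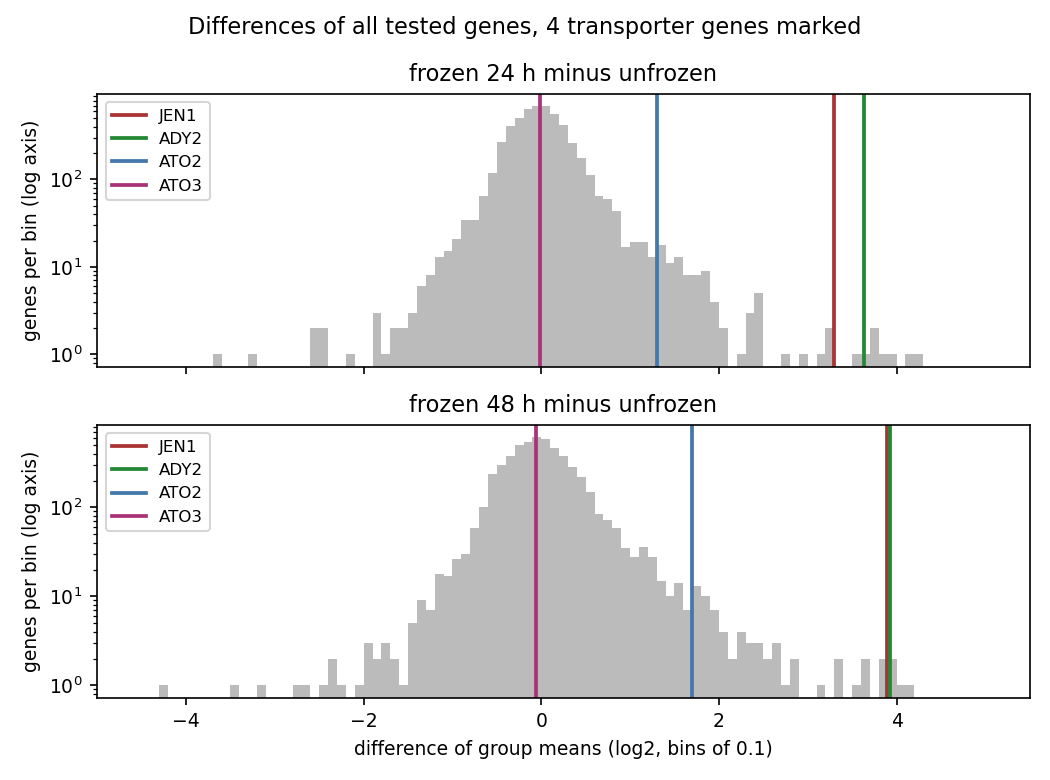
Number of genes (vertical axis, log scale) by difference of group means from unfrozen on the log2 scale (horizontal axis, bins of 0.1), for the 5396 genes tested. Coloured lines mark the transporter genes, with JEN1 and ADY2 between 3.29 and 3.93 at the upper end, ATO2 at 1.30 and 1.69, and ATO3 at -0.02 and -0.06 in the middle of the distribution.

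The spread within groups was large for these genes. The pooled within-group SD of scaled log2 signal was 1.06 for ADY2, 0.87 for JEN1, 0.66 for ATO2 and 0.57 for ATO3, against a median of 0.30 over all genes. That of ADY2 exceeded the SD of 98.9% of genes and that of JEN1 97.8%. ATO3 was among the steadier genes when unfrozen, with an SD of 0.11 and 30.3% of genes below it, and among the more variable ones at 48 h, with an SD of 0.87 and 93.7% of genes below it.

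The comparison of the frozen groups, 48 h against 24 h, did not enter the choice of the genes and was tested. The difference was 0.59 ± 0.56 for JEN1 (log2, SE, n = 3 per group, limma adjusted p = 0.9998), with a 95% interval of -0.66 to 1.85. For ADY2 it was 0.30 ± 0.68, with an interval of -1.22 to 1.81. For ATO2 it was 0.39 ± 0.44 (-0.60 to 1.38) and for ATO3 -0.04 ± 0.38 (-0.89 to 0.81), with the same adjusted p. For JEN1, ADY2 and ATO2 these intervals do not exclude a 2-fold change, which is 1 on the log2 scale. The 24 h and 48 h arrays overlapped for each of the 4 genes, and did not overlap for 2.89% of all genes (1.59% higher at 48 h). Limma called 0 of 5396 genes in this comparison (0%), with 22 at unadjusted p under 0.05. Arrays carrying the same number in the frozen groups deviate together over all genes, and by number the 48 h minus 24 h difference of JEN1 was 1.14, 0.36 and 0.29 in replicates 1, 2 and 3. ADY2 gave 0.93, 0.22 and -0.26, ATO2 0.99, 0.29 and -0.10, and ATO3 0.57, -0.12 and -0.57. In each gene replicate 1 had the highest of the 3 differences. With the replicate number as a block over the frozen arrays alone, a fit added after the data were seen, the SE of JEN1 was 0.19 and its 95% interval 0.16 to 1.03, not adjusted for the number of genes (limma adjusted p = 0.952). The intervals from the same fit were -0.20 to 0.79 for ADY2, -0.10 to 0.88 for ATO2 and -0.52 to 0.44 for ATO3, and limma called 0 genes, with 135 at unadjusted p under 0.05.

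The pathway around these transporters was described with 67 other genes in 7 lists. The lists were drawn up with earlier results of these arrays known, so their calls are also given as a description. Over these genes limma called 1 at 24 h, which rose, and 7 at 48 h, of which 6 rose and 1 fell. The shares are to be read against 1.00% and 2.91% of all genes. The median difference of the 67 genes was -0.01 at 24 h and 0.07 at 48 h, beside -0.02 and -0.03 over all genes.

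Among 22 regulators of transcription, CAT8, the zinc cluster activator of gluconeogenic genes, was the 1 called at 24 h. Of all genes, 1.00% passed at that time. Its scaled log2 signal was 2.94, 3.55 and 3.04 in unfrozen replicates 1, 2 and 3, then 5.18, 5.44 and 6.05 at 24 h and 5.00, 5.79 and 6.42 at 48 h. No frozen array overlapped an unfrozen one, a pattern that 12.2% of all genes showed in this direction at 24 h and 11.9% at 48 h. Replicate 3 was again highest in both frozen groups. The unfrozen CAT8 signals lay close to the 95th percentile of background on the same arrays, which was 2.85, 3.38 and 2.89. The deleted locus LEU2, also low in signal, stood at 1.42 ± 0.65 (log2, SE) at 24 h, with no overlap. It stood at -1.12 ± 0.65 at 48 h, and neither difference was called. CAT8 rose by 2.38 ± 0.40 at 24 h (log2, SE, n = 3 per group, limma adjusted p = 0.0228) and by 2.56 ± 0.40 at 48 h (adjusted p = 0.00913). Its 24 h call was lost without unfrozen replicate 1 or 2, frozen 24 h replicate 2 or 3 or frozen 48 h replicate 2 (2.14 to 2.57, adjusted p up to 0.115), and its 48 h call without unfrozen replicate 1 (2.45, adjusted p = 0.0502). A pseudocount of 16, which weighs on low signals, lowered the difference to 1.23 at 24 h (adjusted p = 0.125) and 1.36 at 48 h (adjusted p = 0.0512). Over 22 other settings its adjusted p ranged from 0.00759 to 0.583 at 24 h, when 12 of them kept the call, and from 0.00287 to 0.312 at 48 h, when 19 did.

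ADR1, the activator of ethanol and peroxisomal genes, had scaled log2 signals of 5.55, 5.56 and 5.13 in unfrozen replicates 1, 2 and 3, 6.43, 6.83 and 6.46 at 24 h and 7.42, 7.39 and 6.63 at 48 h. It stood 1.16 ± 0.26 above unfrozen at 24 h (log2, SE, n = 3 per group, limma adjusted p = 0.0735) and rose by 1.73 ± 0.26 at 48 h (adjusted p = 0.00752). The 48 h call held without each of the 9 arrays in turn, but not in the values as deposited (2.16, adjusted p = 0.0698). It was also lost without replicate 1 or without replicate 2 in each group. MIG2, a glucose-induced repressor, had the lowest difference from unfrozen of the regulators at both times. Its signals were 7.44, 7.56 and 6.54 in the unfrozen arrays, 6.02, 6.14 and 5.19 at 24 h and 5.41, 5.88 and 4.40 at 48 h. It stood at -1.39 ± 0.43 at 24 h (adjusted p = 0.216) and fell by 1.95 ± 0.43 at 48 h (adjusted p = 0.0424). Its 48 h call was lost without any 1 of 7 arrays, all but unfrozen replicate 3 and frozen 24 h replicate 3 (-2.28 to -1.54, adjusted p up to 0.195), and it was also lost in the values as deposited (-1.53, adjusted p = 0.542). The list median was -0.09 at both times, and -0.02 and -0.03 over all genes. The Hap activator subunit gene HAP4 stood at -0.91 ± 0.37 and -0.56 ± 0.37, the kinase gene SNF1 at -0.19 ± 0.19 and 0.07 ± 0.19, and MIG1 at -0.51 ± 0.27 and -0.55 ± 0.27, none of them called.

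Of 8 genes for the use of lactate and pyruvate, 0 were called at 24 h and 1 at 48 h, when 2.91% of all genes passed. CYB2, the mitochondrial L-lactate dehydrogenase, had scaled log2 signals of 6.22, 6.32 and 6.67 unfrozen, 7.22, 6.91 and 7.14 at 24 h and 7.20, 7.29 and 7.59 at 48 h. It stood 0.69 ± 0.19 above unfrozen at 24 h (log2, SE, n = 3 per group, limma adjusted p = 0.171) and rose by 0.96 ± 0.19 at 48 h (adjusted p = 0.0307). The 48 h call of CYB2 was lost without any 1 of 6 arrays, namely unfrozen replicates 1 and 2, frozen 24 h replicates 1 and 2 and frozen 48 h replicates 2 and 3 (adjusted p up to 0.158). MPC3, the subunit of the mitochondrial pyruvate carrier used in respiratory growth, had the largest difference of this list, 1.66 ± 0.73 at 24 h and 1.83 ± 0.73 at 48 h, and was not called (adjusted p = 0.454 and 0.252). Its unfrozen signals of 8.83, 8.62 and 6.55 overlapped the frozen range of 8.30 to 10.69. The D-lactate dehydrogenase genes DLD1, at -0.07 ± 0.21 and 0.06 ± 0.21, and DLD3, the lowest of the list at -0.35 ± 0.21 and -0.30 ± 0.21, were not called. The list median was 0.00 at 24 h and 0.07 at 48 h.

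The 5 acetate genes gave 0 calls at 24 h and 1 at 48 h, when 1.00% and 2.91% of all genes passed. ALD4, the mitochondrial aldehyde dehydrogenase that makes acetate from acetaldehyde, stood 0.81 ± 0.25 above unfrozen at 24 h and rose by 1.18 ± 0.25 at 48 h (log2, SE, n = 3 per group, limma adjusted p = 0.219 and 0.039). Its 48 h call was lost without any 1 of 8 arrays, all but frozen 48 h replicate 3 (0.875 to 1.37, adjusted p up to 0.132). The acetyl-CoA synthetase genes ACS1, the form repressed by glucose, and ACS2, the form used on glucose, stood at 0.60 ± 0.34 and -0.70 ± 0.27 at 24 h, and at 0.49 ± 0.34 and -0.69 ± 0.27 at 48 h, without a call. The cytosolic aldehyde dehydrogenase gene ALD6 stood at -0.63 ± 0.30 and -0.71 ± 0.30, and ACH1 at 0.58 ± 0.29 and 0.91 ± 0.29. The list median was 0.58 at 24 h and 0.49 at 48 h.

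In the glyoxylate cycle and gluconeogenesis, 0 of 7 genes were called at 24 h and 1 at 48 h, with medians of 0.64 and 0.67. Of all genes, 1.00% and 2.91% passed at these times. The called gene was IDP2, the cytosolic isocitrate dehydrogenase, which rose by 0.91 ± 0.20 at 48 h (log2, SE, n = 3 per group, limma adjusted p = 0.0449) after 0.64 ± 0.20 at 24 h (adjusted p = 0.233). Its call was lost without any 1 of 8 arrays, all but frozen 24 h replicate 3 (0.781 to 1.01, adjusted p up to 0.205). The isocitrate lyase gene ICL1 stood at 0.36 ± 0.47 and 0.67 ± 0.47, and the phosphoenolpyruvate carboxykinase gene PCK1, lowest of the list, at -0.00 ± 0.40 and -0.10 ± 0.40. The fructose-bisphosphatase gene FBP1 stood at 1.00 ± 0.46 and 1.27 ± 0.46. The mitochondrial carrier gene SFC1 had the largest 24 h value, 1.55 ± 1.13, with an unfrozen mean of 2.38, close to the background threshold, and stood at 0.50 ± 1.13 at 48 h. None of these genes was called.

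In the values as deposited, without scaling, CYB2, ALD4 and IDP2 were not called at 48 h, with differences of 1.38, 1.60 and 1.34. With the fission yeast sets included in the scaling median they stood at 0.62, 0.84 and 0.58, again not called.

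The remaining lists held 1 call, at 48 h, when 2.91% of all genes passed. Of 13 other carriers of weak acids, their regulators and monocarboxylate transporter homologues, 0 were called at 24 h, when 1.00% of all genes passed. At 48 h MCH4, a homologue of monocarboxylate transporters, rose by 0.94 ± 0.20 (log2, SE, n = 3 per group, limma adjusted p = 0.0419), a call lost without any 1 of 7 arrays, all but frozen 24 h replicate 3 and frozen 48 h replicate 3 (adjusted p up to 0.189), and in the values as deposited (1.36, adjusted p = 0.784). The polyamine and acid exporter gene TPO3 had the largest values of this list, 0.73 ± 0.42 and 1.28 ± 0.42. The sorbate exporter gene PDR12 was lowest at 24 h (-0.50 ± 0.32), and FPS1, a channel for glycerol and undissociated acetic acid, was lowest at 48 h (-0.19 ± 0.18). Of 9 genes for the turnover of transporters none was called, and the count at 48 h is to be read against 2.91% of all genes. The adaptor gene ROD1 stood at -0.21 ± 0.20 and -0.01 ± 0.20 and the ligase gene RSP5 at -0.32 ± 0.28 and -0.30 ± 0.28. BUL1, an adaptor of Rsp5, was the highest at 0.54 ± 0.21 and 0.70 ± 0.21, the casein kinase gene YCK2 the lowest at 24 h (-0.33 ± 0.16) and BUL2 the lowest at 48 h (-0.45 ± 0.17). The ammonium permease genes MEP1, MEP2 and MEP3, listed because the Ato family has been tied to ammonia, stood at 0.03 ± 0.30, -0.52 ± 0.24 and -0.45 ± 0.24 at 24 h and at 0.22 ± 0.30, -0.51 ± 0.24 and -0.30 ± 0.24 at 48 h, with 0 calls at either time.

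**Figure D3:**
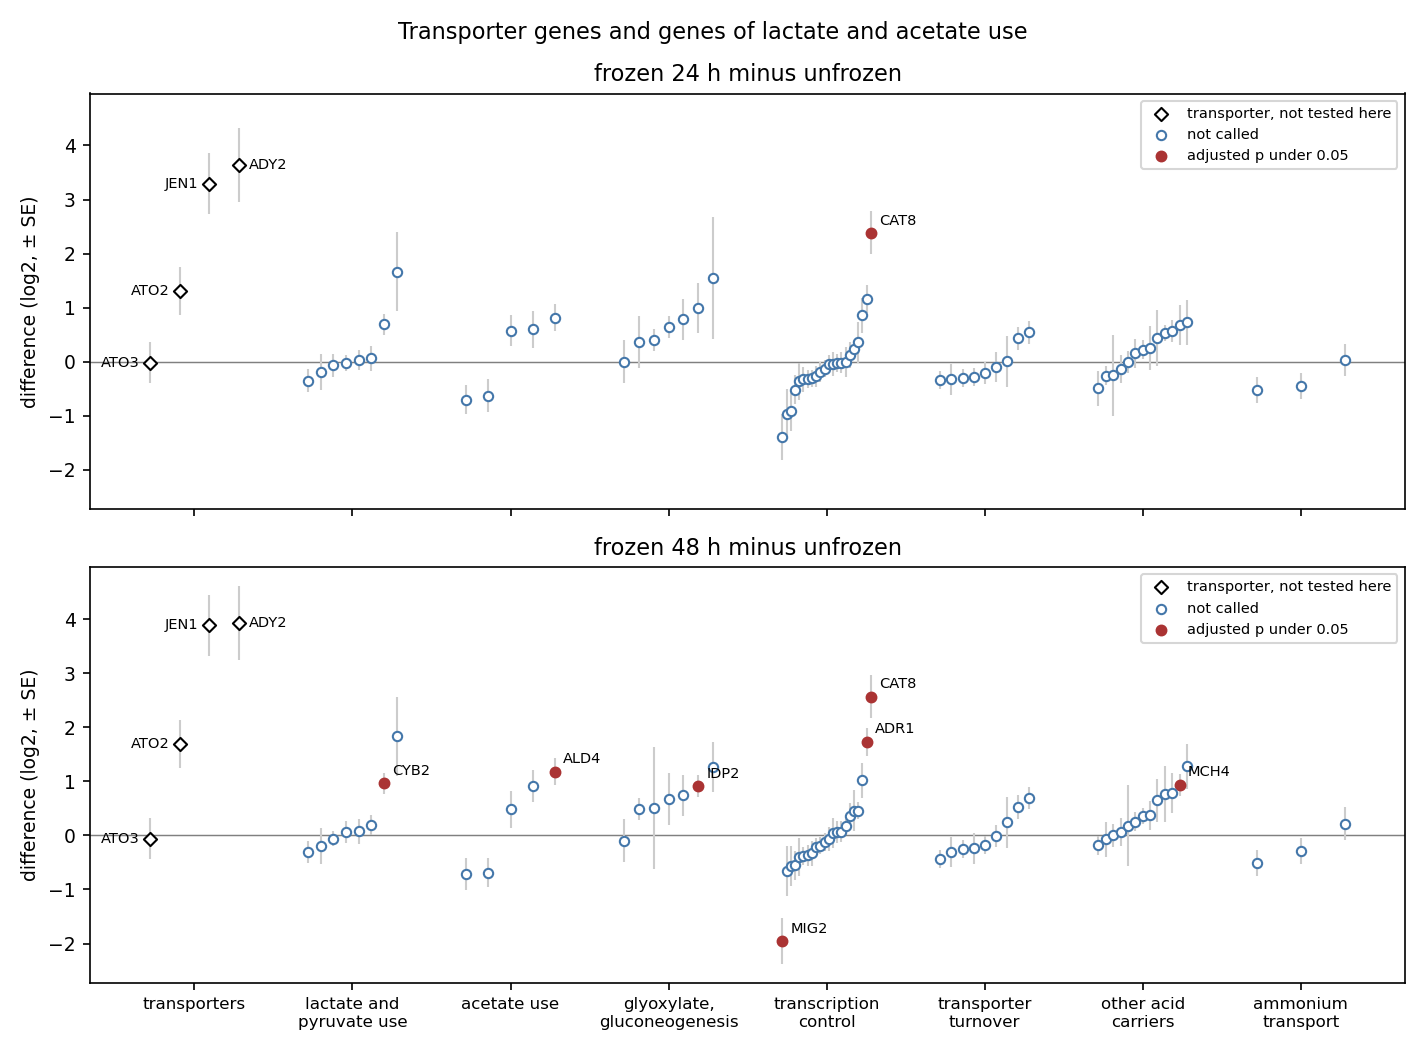
Difference from unfrozen on the log2 scale with its SE (vertical axis) for the transporter genes (diamonds) and the 67 genes of 7 lists (circles, ordered by value within a list), at 24 h and 48 h. Filled circles passed limma's adjusted p of 0.05. CAT8 is the 1 filled circle at 24 h, CYB2, ALD4, IDP2, CAT8, ADR1, MIG2 and MCH4 are filled at 48 h, and JEN1 and ADY2 lie above all circles.

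The likeness of patterns was measured as Pearson's r of scaled log2 signals over the 9 arrays, which share their scaling and fall into frozen and unfrozen sets, so it is a description. JEN1 and ADY2 correlated at 0.99, and each ranked 2 among all genes for the other. Leaving out the transporter genes, those most like JEN1 were NDE2, the external NADH dehydrogenase (r = 0.99), RTC2, a vacuolar membrane protein (0.98), and YMR085W (0.98). Next came the peroxisomal thiolase gene POT1 (0.97, with an unfrozen mean of 1.93, under the background threshold) and the carbonic anhydrase gene NCE103 (0.97). The NAD-dependent glutamate dehydrogenase gene GDH2 (0.99), RTC2 (0.97), the glycogen phosphorylase gene GPH1 (0.97), NDE2 (0.97) and NCE103 (0.96) were most like ADY2. JEN1 and ADY2 thus had 3 of these 5 genes in common. The differences of these genes were of unequal size, 2.36 ± 0.37 at 24 h for NDE2 (log2, SE, n = 3 per group) but 0.50 ± 0.17 for GDH2. Of the pathway genes, CAT8 correlated with JEN1 at 0.96 (rank 11 of all genes) and with ADY2 at 0.96 (rank 7).

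ATO2 correlated with JEN1 at 0.79 and with ADY2 at 0.76. Its most similar genes were MRK1, a kinase of the GSK-3 family (r = 0.94), the phosphoglucomutase gene PGM2 (0.94), ADR1 (0.94), CWC23 (0.93) and YDR042C (0.93). ATO3 correlated with JEN1 at -0.20, with ADY2 at -0.25 and with ATO2 at 0.40. The genes most like ATO3 were the succinate dehydrogenase subunit gene SDH3 (r = 0.99), SNA3 (0.97), the mitochondrial phosphate carrier gene MIR1 (0.97), the flocculin gene FLO10 (0.97) and YAR068W (0.97). SDH3 differed from unfrozen by -0.10 ± 0.29 at both times. On the scaled log2 values it was lowest, like ATO3, in replicate 3 of both frozen groups, at 10.74 and 10.35. For SDH3 this order depended on the scaling at both times. The log2 scaling factor of replicate 3 was -0.95 at 24 h and -1.05 at 48 h, against 0.21 to 0.57 for the other frozen arrays. The lists of ATO2 and ATO3 shared no gene with those of JEN1 and ADY2.

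**Figure D4:**
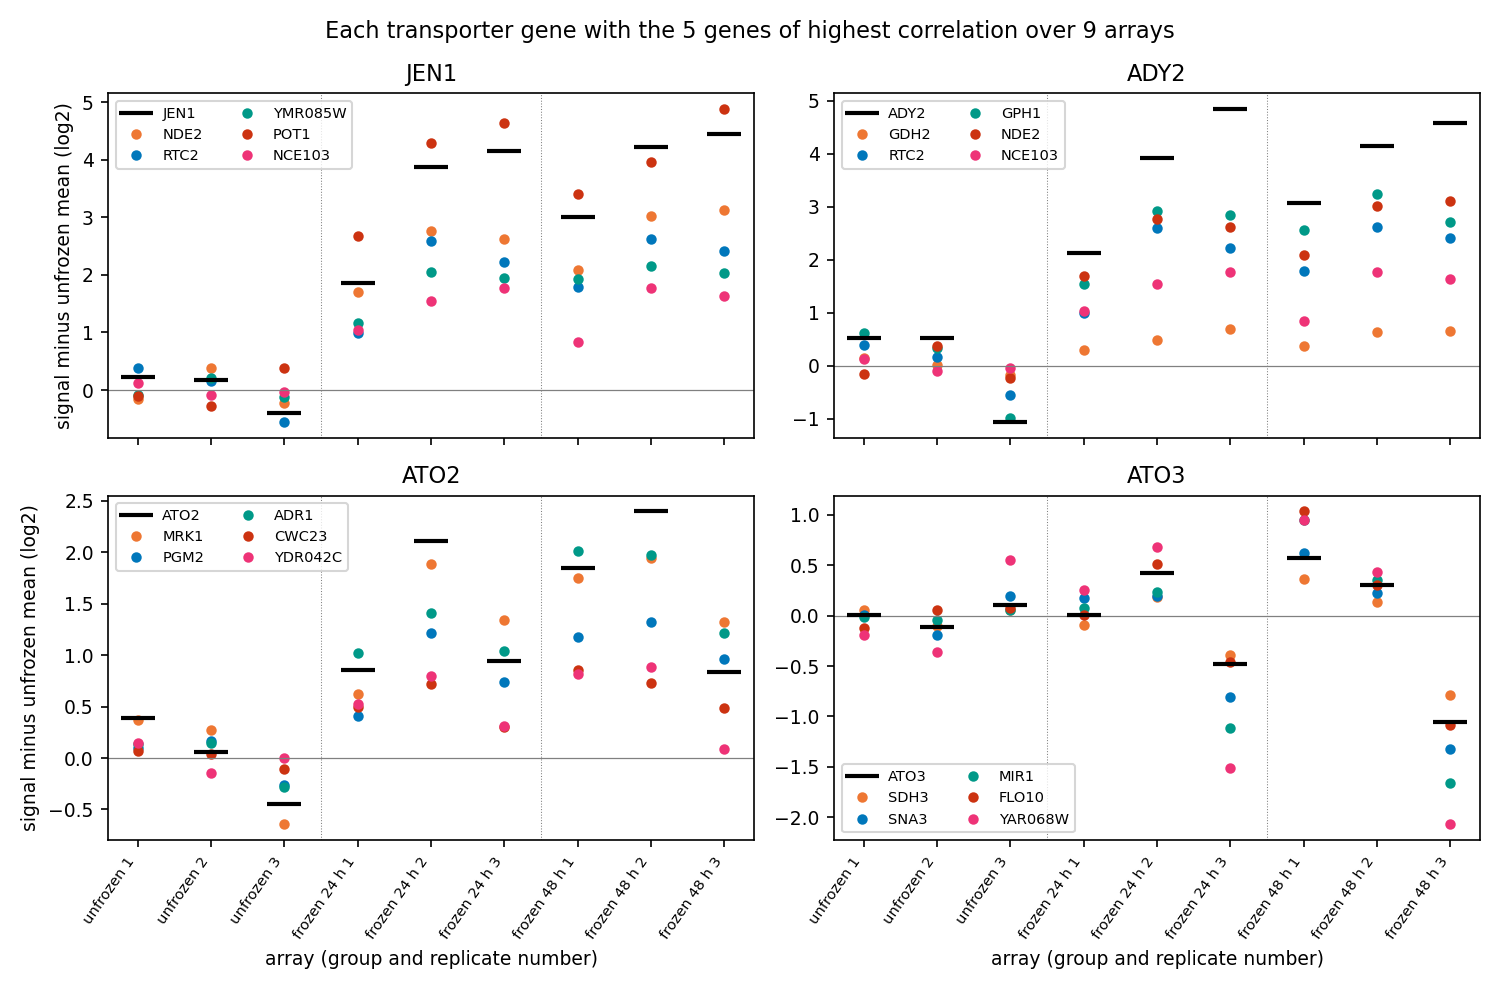
Scaled log2 signal minus the mean of the unfrozen arrays (vertical axis) on each of the 9 arrays (horizontal axis), for each transporter gene (black dash) and the 5 genes with the highest Pearson correlation to it (dots). On these scaled values JEN1, ADY2 and their similar genes are lowest in replicate 1 among the arrays of the 24 h group. ATO3 with its similar genes is lowest in replicate 3 of both frozen groups on these values. That order depended on the scaling for ATO3 at 24 h and for SDH3 at both times.

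The nearest protein-coding genes on either side of each transporter gene, by their order in RefSeq assembly R64, did not pass the test at 24 h or 48 h. Beside JEN1 lie SRY1, at 0.40 ± 0.16 and 0.53 ± 0.16 (log2, SE, n = 3 per group, limma adjusted p = 0.368 and 0.119), and URA1, at -0.21 ± 0.34 and -0.35 ± 0.34. RVS161 and ADP1, beside ADY2, stood at -0.19 ± 0.17 and 0.22 ± 0.18 at 24 h and -0.18 ± 0.17 and 0.37 ± 0.18 at 48 h. CIT1, the mitochondrial citrate synthase gene beside ATO2, stood at 0.16 ± 0.17 and 0.52 ± 0.17 (limma adjusted p = 0.803 and 0.159), and RPC34 on the other side at 0.18 ± 0.20 and 0.01 ± 0.20. NKP1 and EFT2, beside ATO3, stood at -0.00 ± 0.39 and -0.33 ± 0.45 at 24 h and -0.39 ± 0.39 and -0.40 ± 0.45 at 48 h.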

How the data were processed

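Affymetrix Yeast Genome 2.0 arrays measured poly(A)-enriched RNA of 9 samples. Each deposited value is a probe set's intensity, not logged, made with GCOS per the submitters' processing notes. The labels also name GeneSpring 7.3.1 and scaling to the median and to the unfrozen samples, which the values do not show. Of 10928 probe sets, 5498 had 1 S. cerevisiae gene and 1746 with a gene outside that species' RefSeq table, taken as S. pombe and used as background.

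Values were taken to log2 and arrays scaled to the same median of S. cerevisiae probe sets. Genes with a mean above 2.21 (4.64 on the linear scale) went into limma 3.58.1 (R 4.3.3), with a mean for each of 3 groups, all 9 arrays and a mean-variance trend; calls needed a two-sided p under 0.05 after Benjamini-Hochberg adjustment over 5396 genes, the brightest probe set standing for a gene. The procedure was tested on simulated data. The number of arrays limits precision.

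The members and lists were chosen with earlier results of these data known. Named are the transporter genes, called list members, the highest and lowest of each list, the 5 most correlated genes and the chromosomal neighbours; other list genes named for their role were added after their values were seen. No 2 arrays shared over 0.00915% of values. Replicate numbers were taken to pair the frozen groups, from the data alone, since deviations correlated at 0.59, 0.39 and 0.79; against unfrozen they ranged from -0.38 to 0.25. Gene order in RefSeq R64 gave the neighbours; no coordinates are printed, and no sequences were used.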

Additional observations from a re-analysis of the deposited data

How the results depend on the processing

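The processing was varied in 22 ways. The 3 other scalings were by quantile, none, or by the median of all 10928 probe sets, S. pombe sets included. Other changes were a pseudocount of 16, the filter dropped or set at the 99th percentile and a fit without trend. The rest were a fit to the compared groups alone, the replicate block, averaged probe sets, and each array or replicate number left out. JEN1, ADY2 and ATO2 lay above unfrozen in all 22, from 2.67 to 4.12, 2.50 to 4.65 and 0.90 to 1.72 at 24 h, and from 3.41 to 4.44, 3.07 to 4.63 and 1.33 to 2.12 at 48 h. ADY2 at 24 h moved by more than its SD without replicate 3 (2.50). Its 24 h limma adjusted p was over 0.05 with quantile scaling (0.0674), scaling to all probe sets (0.0555), the pseudocount (0.0708) or no trend (0.0521). ATO3 ranged from -0.34 to 0.28 and from -0.40 to 0.49, with no settled sign. In 48 h against 24 h limma called 0 genes in every alternative, including a fit of the frozen arrays with the replicate block, added after the data were seen.

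Counts of called genes depended on the processing. The values as deposited gave 34 genes at 24 h and 54 at 48 h, with 2 pathway genes at 48 h, CAT8 and MPC3. With S. pombe sets in the scaling median, which put the middle of the gene distribution at -0.34 and -0.37, the split at 24 h was 19 higher and 45 lower, against 43 and 11, and 48 h gave 265 genes, 57 higher and 208 lower, against 113 and 44. That scaling gave 0 and 4 pathway genes. Quantile normalization gave 0 pathway genes at 24 h, and the pseudocount 0 and 4. With only the groups compared there were 118 and 84 genes and 2 pathway genes at each time. With the replicate block there were 113 genes and 3 pathway genes at 24 h, and ATO2 passed at 48 h (limma adjusted p = 0.0197), as it also did without frozen 48 h replicate 3 (0.0189) and without replicate 3 in each group (0.0325). Replicate numbers were taken to pair only the frozen groups, from the data alone, and the labels state no pairing. Leaving out arrays or replicate numbers gave 0 to 126 genes at 24 h and 0 to 232 at 48 h, and 0 to 2 and 0 to 9 pathway genes. Both gene counts of 0 came without replicate 2 in each group, with 210 and 404 genes at unadjusted p under 0.05. The 48 h pathway count was 0 in that removal alone. At 24 h the pathway count was 0 in every removal that cost CAT8 its call, several single arrays and replicate 1 among them. The causes were not tested. Against unfrozen, quantile scaling changed the sign of no list's median. The values as deposited, with the median of all genes at 0.28 and 0.40, and the scaling to all probe sets shift all genes together. They turned the small medians of all lists but acetate use and glyoxylate at 1 or both times.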
